A study of Arabidopsis thaliana with 4 samples.

Results

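Chromatin accessibility was examined at 10 Arabidopsis genes of phloem identity and sieve element function, in nuclei of the root tip from seedlings with and without osmotic stress. The genes were APL (AT1G79430), SUC2 (AT1G22710), DOF2.4 (AT2G37590), HCA2 (AT5G62940), NAC057 (AT3G17730), NAC020 (AT1G54330), NAC086 (AT5G17260), CalS7 (AT1G06490), CVP2 (AT1G05470) and SEOR1 (AT3G01680), and the rule that lists them uses no measured value. They are 10 of the 33056 annotated genes considered. For each gene, the merged accessible regions that overlapped its body or the 2000 bases upstream of its start were collected, and 9 of the 10 genes had at least 1. These genes held 16 of the 27677 merged regions.

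The samples were 4 libraries of single nuclei from 5 mm root tips of Col-0 wild-type seedlings, each profiled for RNA and for accessible chromatin in the same nuclei. In the control group (2 libraries, labelled WT and titled control) seedlings grew on plain medium. In the stress group (2 libraries, labelled osmotic stress and titled case) the same medium held sorbitol, a sugar alcohol that lowers the water potential around the root. All 4 libraries thus shared genotype, tissue and base medium, with 15000 nuclei loaded for each. The study calls the libraries of a group biological replicates without saying whether they came from separate cultures, so p-values measure the spread between these libraries.

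Phloem carries sugars from source leaves to growing tissue such as the root tip. Its conducting cells, the sieve elements, lose their nucleus as they mature and are joined end to end through sieve plates lined with callose, while companion cells beside them keep their nucleus and load the sugar. In the root the earliest sieve elements, the protophloem, differentiate a short distance behind the stem cells, so only a small file of nuclei in a root tip belongs to them. A nucleus of an accessible-chromatin library yields a count where the transposase cut open DNA, and a region of dense cuts is called a peak.

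After nuclei were called, the libraries held 6069 nuclei for control 1, 12068 for control 2, 15302 for stress 1 and 14552 for stress 2. The count of stress 1 exceeds the 15000 nuclei stated as loaded, so not every called barcode there need be a nucleus of its own. The other libraries were called in the same way, so this limit may hold for them too. The filter of the study also used the nucleosome signal and the enrichment at gene starts, which were not used here. In each group the study kept fewer nuclei over both libraries than were called here in the smaller library. The shares and odds ratios below thus rest on many more barcodes than the study kept. The accessibility matrices totalled 47853119 to 75473335 counts, with a median of 3423.5 to 4851 counts per called nucleus. Control 1 stood apart: it had the fewest nuclei, the deepest nuclei and the fewest peaks (19858, against 24317 to 25001 in the others), and over the 18340 regions with a peak in all 4 libraries its log2 CPM correlated with the other libraries at 0.934 to 0.958, against 0.973 to 0.991 among the other 3. Between 124 and 342 cell barcodes were shared by any pair of libraries, where random draws from the listed barcodes give 99.5 to 302. The sources give no cell type per nucleus, and every level below is a sum or share over all called nuclei of a library, in which fewer phloem nuclei and less accessible DNA per nucleus cannot be told apart.

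The sequences below lie inside the start regions of HCA2, CalS7 and NAC057, and they are shown because, of the regions at gene starts, these had the lowest p-values between the groups. Each is read 5′ to 3′ on the strand of the gene from RefSeq's TAIR10.1 assembly, and only bases outside annotated exons are printed. Capitals mark AAAG or its reverse complement CTTT, the core of sites bound by Dof transcription factors, the family of HCA2 and DOF2.4.
HCA2 region 2, chr5:25259120-25259419, minus strand: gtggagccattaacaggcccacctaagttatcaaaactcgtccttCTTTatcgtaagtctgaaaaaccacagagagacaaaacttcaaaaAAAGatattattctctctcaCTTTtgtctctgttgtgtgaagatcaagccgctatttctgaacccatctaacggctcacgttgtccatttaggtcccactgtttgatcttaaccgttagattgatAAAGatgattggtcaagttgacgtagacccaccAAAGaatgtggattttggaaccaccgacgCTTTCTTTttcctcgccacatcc
CalS7 region 1, chr1:1977932-1978083, plus strand: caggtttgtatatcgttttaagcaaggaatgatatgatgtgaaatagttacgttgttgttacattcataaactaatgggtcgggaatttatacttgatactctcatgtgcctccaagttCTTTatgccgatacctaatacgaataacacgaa
NAC057 region 1, chr3:6063721-6063828, plus strand: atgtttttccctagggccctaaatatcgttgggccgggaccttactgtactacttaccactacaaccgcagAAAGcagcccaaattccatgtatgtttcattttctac

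Within the central 300 bases of each region, searched on both strands, HCA2 held 7 AAAG cores, NAC057 held 3 and CalS7 held 2. These letters are common: 98.7% of all 18340 shared regions held AAAG in the same window, with a median of 5 matches and a 95th percentile of 9. HCA2 also had 1 match to ACGTG, the core of the abscisic acid response element, which 35.0% of all windows held. It lay 549 to 545 bases before the gene start. GNATATNC, a motif bound by MYB-CC factors, the family of APL, was in none of the 3 windows and in 5.88% of all windows. A match is a string of letters here and not evidence of binding.

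APL, SUC2, CVP2, SEOR1 and DOF2.4 had no region with a peak in every library. APL (AT1G79430) is the MYB-CC transcription factor that sets phloem identity, and no peak of any library fell in its body or the 2000 bases before its start (chromosome 1, 29877228 to 29879279, minus strand, TAIR10). Of the 33056 genes, 82.4% had at least 1 region in that window, so a gene without one was in the minority. The peak files list only regions that passed the peak caller, so an absent peak gives no count and is not a count of 0.

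SUC2 (AT1G22710), the sucrose-proton symporter with which companion cells load phloem, had a single region 2635 to 1722 bases before its start (chromosome 1, 8034878 to 8035791). It was a peak in both control libraries and in neither stress library, with 1069 counts in control 1 and 1356 in control 2. These were 27.1 and 22.3 per 1e6 counts of the called nuclei, low in the order of all regions of the library by count (percentiles 8.43 and 11.6, not corrected for length). A peak in both controls and no stress library was found for 0.827% of all merged regions, and the reverse pattern for 4.06%. Since no count exists where no peak was called, no fold change can be given.

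The remaining genes of this kind had peaks that followed no group. DOF2.4 (AT2G37590), a Dof factor that promotes divisions around the protophloem, had a region 1326 to 473 bases before its start in control 2 (1226 counts) and stress 1 (1437 counts). It was among the weaker regions there, at percentiles 7.75 and 10.12 by count, and it also overlapped the window of the neighbouring gene AT2G37585. CVP2 (AT1G05470), a phosphoinositide phosphatase needed for an unbroken protophloem strand, had a region inside the 3′ part of its body in control 2, stress 1 and stress 2, with 1923, 1807 and 1826 counts. A second CVP2 region, spanning the start, was a peak in stress 1 alone (1283 counts). SEOR1 (AT3G01680), a filament protein of mature sieve elements, had a region at its 3′ end in stress 1 alone, with 3250 counts, at percentile 72.3 by count. That region also lies in the window of the next gene, AT3G01690.

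Across all 16 regions of the phloem genes, 9 (56.3%) had a peak in all 4 libraries, against 66.3% of all merged regions. Peaks were present at 10 of the 16 in control 1, 14 in control 2, 15 in stress 1 and 12 in stress 2. At 3 of the 16 regions (18.75%), control 1 was the only library without the peak, a pattern that 12.7% of all merged regions had. Control 1 had the fewest nuclei and the fewest peaks of the 4, and the part of this in the missing peaks was not tested. A region from 1000 bases before to 200 bases after the start, with a peak in all libraries, was present for 4 of the 10 genes (HCA2, NAC020, NAC057 and CalS7), against 55.8% of all genes. The same count was 15 of 31 for other phloem genes, 6 of 17 for the phloem markers the study lists, 2 of 16 for endodermis, 6 of 15 for xylem, 4 of 9 for cortex, 8 of 17 for trichoblast, 7 of 18 for root cap, 3 of 9 for pericycle and 5 of 5 for division genes.

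**Figure D1:**
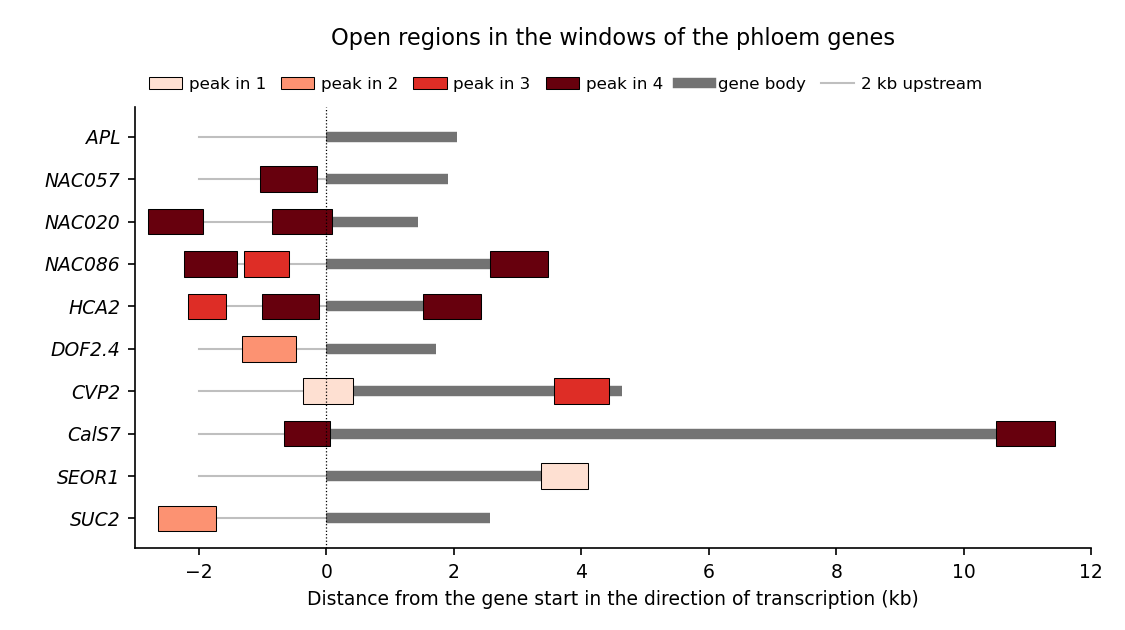
Accessible regions of the phloem genes, drawn to scale against the distance from each gene's start in bases, with the grey bar for the gene body, the line for the 2000 bases upstream and the colour for the number of libraries with a peak. APL has no region, 9 of the 16 regions are peaks in all 4 libraries, and HCA2, NAC020, NAC057 and CalS7 each have such a region near the start.

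The other 5 genes, HCA2, NAC057, NAC020, NAC086 and CalS7, had 9 regions with a peak in all 4 libraries, which could be compared between groups. In these regions no phloem gene passed the test between stress and control: 0 of 5 genes and 0 of 9 regions had an adjusted p under 0.05 in edgeR's quasi-likelihood test, where 0.925% of all 22820 genes and 1.15% of all 18340 regions did. Without adjustment, 1 of the 5 genes and 3 of the 9 regions had p under 0.05, against 21.9% of all genes and 23.5% of all regions. Every change was small, the largest being −0.27 on the log2 scale.

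CalS7 (AT1G06490), the callose synthase of the sieve plate, had the clearest of these values. Its start region (chromosome 1, 1977719 to 1978443, from 659 bases before to 65 bases after the start) measured 80.2 CPM in control 1, 75.0 in control 2, 67.3 in stress 1 and 65.5 in stress 2. Both stress libraries lay below both controls. The means were 77.6 ± 3.67 in control and 66.4 ± 1.30 under stress (SD, n = 2 libraries each), a log2 change of −0.22 with a 95% interval of −0.35 to −0.096. In edgeR's quasi-likelihood fit over all regions the adjusted p was 0.0871, so the difference did not pass the threshold. DESeq2 placed it and HCA2 region 1 past the threshold (adjusted p = 0.00528 and 0.00894), as it did 12.4% of all regions, and no phloem gene, against 11.2% of all genes. The peak called at CalS7 also narrowed, from 725 and 667 bases in the controls to 625 and 621 bases under stress, and with the peak width of each library as an offset the edgeR log2 change was −0.066 (adjusted p = 0.391).

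The second CalS7 region lay at the 3′ end of the gene, at the start of AT1G06500, and did not follow the first. Its levels were 48.4, 51.8, 51.9 and 49.9 CPM in control 1, control 2, stress 1 and stress 2, and the groups overlapped (log2 change 0.021, edgeR adjusted p = 0.841). The start region held 62.4% and 59.2% of the counts of the gene in the controls and 56.5% and 56.8% under stress. The start region also overlaps a transfer RNA gene, AT1G06480, whose part in the counts was not tested.

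HCA2 (AT5G62940), a Dof factor that promotes divisions in the vascular cylinder, had regions on both sides whose values went in opposite directions. Region 2, from 1015 to 116 bases before the start and in the window of no other gene, measured 55.8 CPM in control 1, 60.8 in control 2, 64.7 in stress 1 and 64.6 in stress 2. Region 1, at the 3′ end, measured 48.0, 42.9, 38.3 and 36.8 CPM in the same order. Neither pair of groups overlapped: the upstream region was higher and the 3′ region lower in both stress libraries. The log2 changes were 0.15 (95% interval 0.017 to 0.28, edgeR adjusted p = 0.176) and −0.27 (−0.44 to −0.11, edgeR adjusted p = 0.0959), and neither passed. The difference between these changes was not itself tested. The 3′ region is shared with the window of ARR6, a response regulator of cytokinin signalling, and with that of AT5G62930, so its counts cannot be assigned to HCA2 alone.

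Summed over both regions, HCA2 was level, at 56.5, 56.5, 56.3 and 55.4 CPM (log2 change −0.016, edgeR adjusted p = 0.828). What shifted was the share of its counts in the 3′ region, which was 46.2% in control 1, 41.4% in control 2, 37.2% in stress 1 and 36.3% in stress 2. The controls thus differed from each other by more than the stress libraries did. HCA2 region 3, 2166 to 1568 bases before the start, was a peak in control 2, stress 1 and stress 2 only, with 936, 1043 and 1037 counts.

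The 3 NAC genes encode transcription factors of the NAC family, of which NAC086 acts below APL in the breakdown of the sieve element nucleus. NAC057 (AT3G17730) had 1 region, from 1046 to 142 bases before its start, with 67.4 CPM in control 1, 62.5 in control 2, 59.43 in stress 1 and 60.04 in stress 2. The stress libraries lay below the controls, but the log2 change of −0.12 did not pass (95% interval −0.25 to 0.0063, edgeR adjusted p = 0.230). The start region of NAC020 (AT1G54330) measured 39.5, 38.7, 41.9 and 40.4 CPM, with both stress libraries slightly above the controls (log2 change 0.074, 95% interval −0.063 to 0.21, edgeR adjusted p = 0.461). Its second region, at the start of the isocitrate dehydrogenase gene ICDH next to it, was flat at 54.4, 54.8, 54.9 and 53.8 CPM. NAC086 (AT5G17260) had no region at its start in every library. Its 3′ region measured 43.8, 40.6, 42.6 and 39.1 CPM and the region at the start of its neighbour AT5G17270 measured 41.0, 38.2, 38.0 and 39.3 CPM, with overlapping groups in both. A region 1292 to 581 bases before the NAC086 start was a peak in control 2, stress 1 and stress 2, with 1670, 1644 and 1852 counts.

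**Figure D2:**
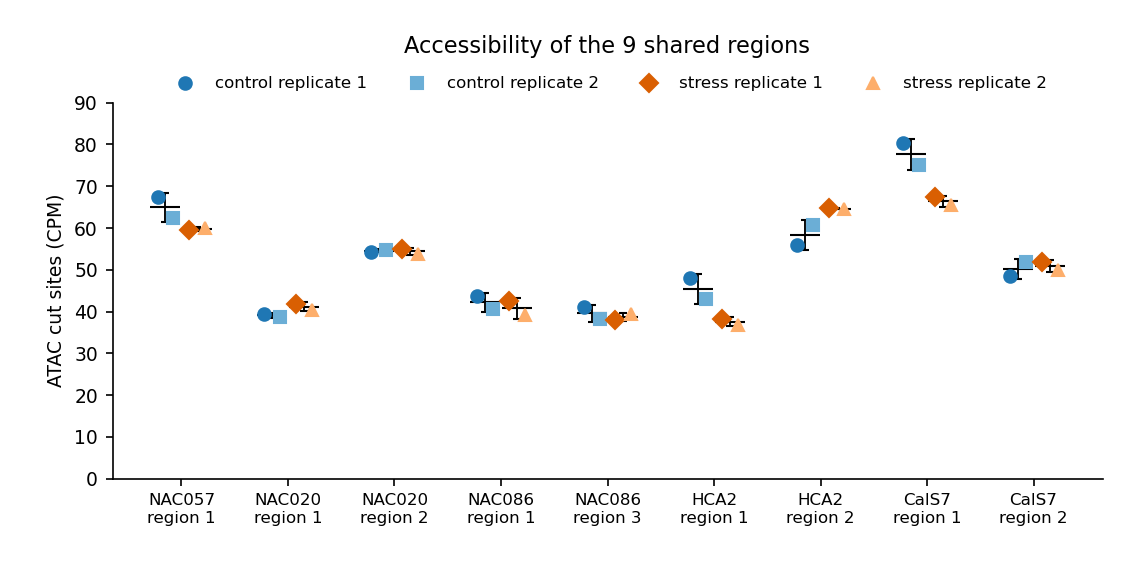
CPM of the 9 regions of phloem genes with a peak in all libraries, 1 point per library, with the mean and SD of the 2 libraries of each group. The stress points lie below the control points at CalS7 region 1, HCA2 region 1 and NAC057 region 1 and above them at HCA2 region 2 and NAC020 region 1, with overlap at the other 4 regions.

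The groups thus did not overlap at 5 of the 9 regions, 3 with lower and 2 with higher values under stress, and at 4 of the 5 genes. Such a separation is common with 2 libraries in each group: 58.5% of all regions (29.1% lower and 29.4% higher under stress) and 57.3% of all genes (28.5% lower and 28.8% higher) showed it. The counts behind the 9 regions were 1478 to 3796 per library, and the SE of the log2 changes was 0.047 to 0.071. The intervals at NAC020 region 2 (−0.12 to 0.11) and CalS7 region 2 (−0.11 to 0.15) thus bound the changes closely without showing that there were none. The interval at NAC086 region 3 was −0.18 to 0.12. The peak called there was wider under stress (806 and 817 bases, against 741 and 720 in the controls). With the peak width of each library as an offset, its log2 change was −0.184 (edgeR adjusted p = 0.105), at the lower edge of that interval.

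Per kilobase of merged region, the level was highest at the CalS7 start, with a mean of 99.3 ± 9.45 CPM per kilobase (SD, n = 4 libraries). Its lowest library was above the highest library of any other phloem region. NAC057 region 1 (68.9 ± 4.02), HCA2 region 2 (68.3 ± 4.65) and NAC020 region 2 (63.2 ± 0.58) followed, and neighbours in this order overlapped over the libraries. CalS7 region 2 came next, at 54.6 ± 1.80, and by merged width its libraries did not overlap those of the next region on either side. The counts of a library come from its own peak, which could be narrower than the merged region. At NAC086 region 3 the peaks were 741, 720, 806 and 817 bases in control 1, control 2, stress 1 and stress 2, of 841 merged bases. The gaps in this order can thus depend on the width used. NAC086 region 3, NAC086 region 1, HCA2 region 1 and NAC020 region 1 were the lowest, at 42.4 to 46.5 CPM per kilobase, and each overlapped the next.

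Which control libraries entered the fit decided the calls. Without control 1, CalS7 region 1 (log2 change −0.18, edgeR adjusted p = 0.00651) and HCA2 region 1 (−0.19, adjusted p = 0.0265) passed, as did 19.0% of all regions. Without control 2, CalS7 region 1 (−0.27, adjusted p = 5.68e-06), HCA2 region 1 (−0.35, adjusted p = 1.40e-05), HCA2 region 2 (0.21, adjusted p = 0.000579) and NAC057 region 1 (−0.17, adjusted p = 0.00320) passed, as did 43.3% of all regions. Of the genes, CalS7 passed without control 1 (adjusted p = 0.0184, beside 20.1% of all genes), and CalS7 (adjusted p = 0.00225) and NAC057 (adjusted p = 0.00392) passed without control 2 (beside 43.3%). In these fits the lone control library is assumed to vary as the stress libraries do, which were closer to each other than the controls were. No member passed without stress 1 or without stress 2.

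**Figure D3:**
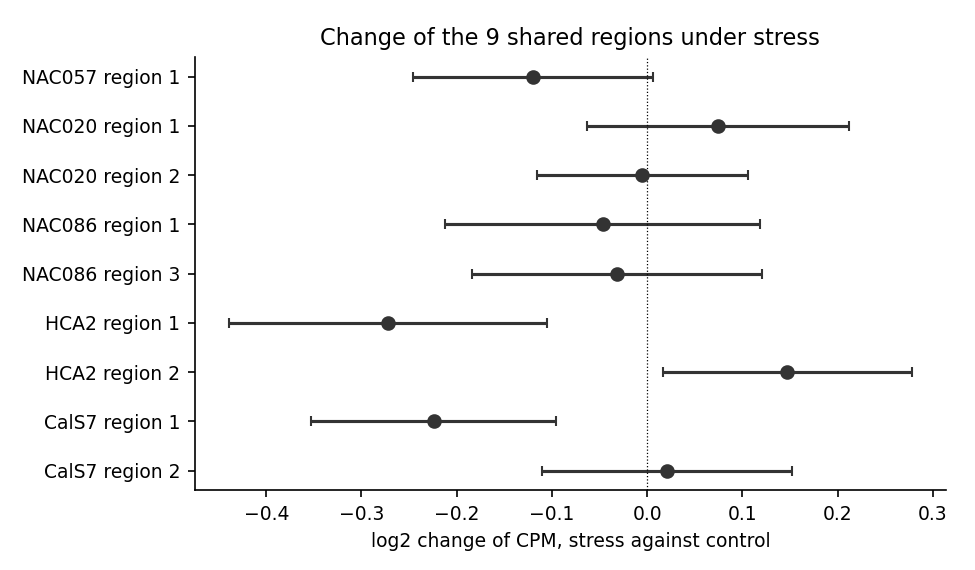
Log2 change from control to osmotic stress at the 9 shared regions of the phloem genes, with 95% intervals from edgeR's fit over all 18340 regions. The intervals of CalS7 region 1 (−0.35 to −0.096), HCA2 region 1 (−0.44 to −0.11) and HCA2 region 2 (0.017 to 0.28) leave out 0 before adjustment, and no region passed after it.

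Other genes of the pathway were read from the same fit. Of 31 further phloem genes (among them the SMXL and CLE genes and transporters), 26 had a region and 22 could be tested. In edgeR 0 passed, beside 0.925% of all genes, and 4 had an unadjusted p under 0.05, beside 21.9% of all genes. The median log2 change of the 22 was −0.022, with 9 above 0. Over all genes the median was −0.0015, with 11281 of 22820 above 0. The largest values were at PEAR2, a Dof factor of the same group as DOF2.4 (12.9, 9.44, 9.36 and 8.63 CPM in control 1, control 2, stress 1 and stress 2; log2 change −0.30, edgeR adjusted p = 0.274), and at AKT2, a potassium channel of phloem (23.3, 21.8, 25.5 and 25.8 CPM; 0.19, edgeR adjusted p = 0.138). The groups did not overlap at either gene, and at PEAR2 control 1 was set apart from the other 3 libraries. PEAR2 was also among the weakest of all tested genes, at percentile 0.223 by mean CPM, and the SE of its change was 0.149. AKT2 was at percentile 20.7, with an SE of 0.060. DOF6, TMO6, OBP2, SWEET12 and ENODL9 had no region in any library, as APL had none.

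The 17 phloem markers that the study lists for naming cells of these samples gave 11 testable genes, of which 0 passed. In edgeR 1 of the 11 was above 0, beside 11281 of all 22820 genes, and the median was −0.055. The list was not tested as a set. The largest values in edgeR were at CYCD6;1, a D-type cyclin (36.5, 34.8, 32.0 and 31.7 CPM; −0.16, adjusted p = 0.126), and at AT5G22870 (52.5, 45.1, 43.4 and 45.1 CPM; −0.14, adjusted p = 0.290). In CYCD6;1 the stress libraries lay below the controls, and at AT5G22870 stress 2 lay next to control 2.

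Markers of the other cell types in a root tip gave the scale for these values. No gene passed among 8 tested xylem, 8 endodermis, 5 cortex, 12 trichoblast, 10 root cap, 5 pericycle and 5 division genes, and the list medians ran from −0.068 (division) to 0.084 (cortex). The largest values per list in edgeR were at COBL4 (−0.27) and ATHB-8 (0.27) for xylem, MYB36 (0.16) and CASP2 (0.10) for endodermis, AT2G40260 (0.16) and AT5G18840 (0.14) for cortex, COW1 (−0.19) and PRP3 (−0.14) for trichoblasts, PASPA3 (0.18) and AT3G62320 (−0.14) for root cap, LBD29 (0.18) and MYB305 (0.16) for pericycle, and CYCB1-1 (−0.26) and CYCB2-1 (−0.084) for dividing cells. The values of the 5 phloem genes ran from −0.12 to 0.034, and no difference between lists was tested.

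The question of how many nuclei had an open phloem locus was addressed on nuclei thinned to 1000 counts in shared regions. Thinning was used since unthinned shares follow depth. However, the commonest value in the matrices was 2, and 73.7% to 75.9% of the values were even. Thinning drew single counts, so it could split such pairs of counts more often in deeper nuclei. Thinned shares can thus still depend on depth, and the part of this was not tested. A locus was called open in a nucleus with at least 1 count over its shared regions. CalS7 was open in 10.2% of nuclei in control 1, 10.3% in control 2, 9.54% in stress 1 and 9.84% in stress 2. HCA2 was open in 8.79%, 8.50%, 8.43% and 7.76%, and NAC057 in 5.74%, 5.20%, 4.89% and 4.70%. At these 3 loci both stress libraries lay below both controls. How many of all loci separate in this way was not counted for shares. By CPM, 28.5% of all genes were lower under stress without overlap and 28.8% were higher.

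NAC086 (7.09%, 6.45%, 6.38% and 6.27%) was likewise lower under stress, while NAC020 (8.04%, 8.08%, 8.12% and 8.01%) was level. The differences between group means, stress minus control, were −0.59 percentage points for CalS7, −0.55 for HCA2, −0.67 for NAC057, −0.44 for NAC086 and 0.0051 for NAC020. By a two-sided exact permutation test over libraries the first 4 reached p = 0.333, the smallest that 2 against 2 allows, and NAC020 gave p = 1. Over the 5 loci, adjusted over them or not, no p could pass 0.05. Thinning kept 94.4% to 98.8% of the called nuclei. Without it the shares were 10.6% to 32.2% and all were highest in control 1, the library with the deepest nuclei.

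The direction of these shares rested on the definition, and depth can enter under either definition. With at least 2 counts in place of 1, the shares were 1.05% to 2.401%, and the differences were positive for HCA2 (0.264 percentage points), NAC086 (0.265) and CalS7 (0.362). In single libraries, the 95% Wilson interval of the thinned CalS7 share was 9.50% to 11.04% in control 1 and 9.07% to 10.0% in stress 1, which covers counting error only. A locus gives counts in any nucleus where its DNA can be cut, so these are not shares of phloem nuclei.

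At the same thinned depth, 31.5% to 33.9% of nuclei had at least 1 of the 5 loci open, 4.66% to 5.42% had 2 or more and 0.353% to 0.634% had 3 or more. To see whether the loci were open in the same nuclei, the odds ratio of 2 loci being open together was taken within 20 bins of nucleus depth in each library, as a description with no test, since nuclei of a library are not replicates. A value of 1 means that 2 loci were open together as often as their separate shares give. Over the 10 pairs of the 5 loci the median odds ratio was 1.05 in control 1, 1.02 in control 2, 1.03 in stress 1 and 1.05 in stress 2. For pairs of a phloem locus and a marker of another cell type, 265 pairs in all, it was 1.02 in each library. With all shared regions away from the phloem genes, the median of a phloem locus was 1.01 to 1.03 over loci and libraries. The medians between phloem loci were thus at most slightly above those with regions in general and with genes of other cell types.

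HCA2 and NAC020 had the highest value of the 10 pairs and were above 1 in every library, at 1.16 in control 1, 1.07 in control 2, 1.11 in stress 1 and 1.15 in stress 2. In control 1, 564 nuclei had both loci open where 535 were expected, and in stress 2 it was 609 where 566 were expected. NAC057 and NAC020 were at the other end, at 0.95, 0.89, 1.03 and 1.15. Of the 10 pairs, HCA2 with NAC086 and HCA2 with CalS7 were also above 1 in all 4 libraries. The share of all regions with this pattern was not counted for loci. For single phloem regions it was 11.7% to 20.5%. The 95th percentile of HCA2 with all shared regions was 1.21, 1.17, 1.16 and 1.152 in the same order of libraries. HCA2 with NAC020 lay below it in each, though barely in stress 2 (1.151). The mean over the group was 1.11 ± 0.065 in control and 1.13 ± 0.032 under stress for HCA2 with NAC020 (SD, n = 2 libraries).

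Genes without a region in every library could be read only where they had a peak. In those libraries the median odds ratio of SUC2 with the 5 loci was 1.11 in control 1 and 1.06 in control 2. It was 1.11 in control 2 and 1.04 in stress 1 for DOF2.4, and 1.05, 1.05 and 0.98 for CVP2 in control 2, stress 1 and stress 2. SEOR1 gave 1.04 in stress 1. With markers of other cell types the medians were 1.07 and 1.04 for SUC2, 1.02 and 1.00 for DOF2.4, 0.985, 1.07 and 1.05 for CVP2, and 1.02 for SEOR1, in the same order of libraries. The value with the 5 loci was the higher in each library for SUC2, DOF2.4 and SEOR1, but for CVP2 in control 2 only. With other phloem genes the medians were 1.05 and 1.0416 for SUC2, 1.11 and 1.01 for DOF2.4, and 1.01 for SEOR1. For CVP2 they were 1.06, 1.05 and 1.02. SUC2 and SEOR1 were thus lower than with other cell types in each library (SUC2 in control 2: 1.0416 against 1.0429). So was CVP2 in both stress libraries, while DOF2.4 in both libraries and CVP2 in control 2 were higher. Single values of SUC2 with the 5 loci ran from 0.915 to 1.27.

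A locus sums regions at the start and at neighbouring genes, so the single regions were then compared in the same way, a step chosen after the locus values had been seen. Among 32 pairs of regions of different phloem genes, 7 (21.9%) were above 1 in all 4 libraries and 0 were below 1 in all 4. With regions of the whole genome, the 9 phloem regions were above 1 in all 4 libraries for 11.7% to 20.5% and below for 4.41% to 7.79%. The medians over pairs were 1.06, 0.979, 1.03 and 1.06 in control 1, control 2, stress 1 and stress 2, and single values ran from 0.848 to 1.32.

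**Figure D4:**
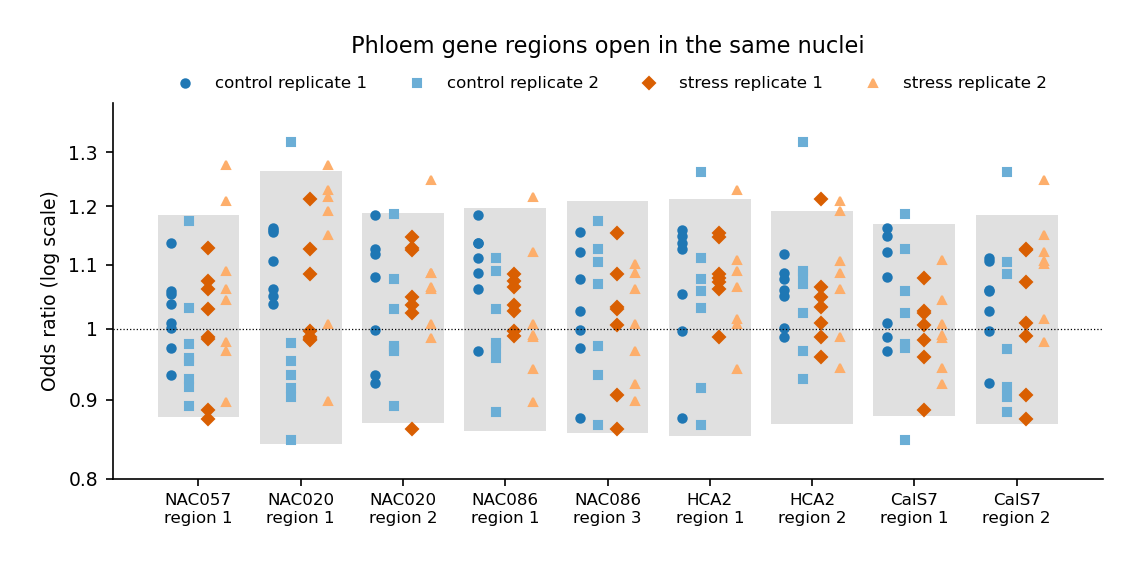
Odds ratios of opening in the same nuclei for each shared phloem region with the regions of other phloem genes, 1 point per pair and library, on a grey band from the 5th to the 95th percentile over all shared regions (each a mean over libraries). Most points lie inside the band, and the values run from 0.848 to 1.32.

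The NAC020 start region had the widest range of values of the 9, as a description with no test. Over all 18332 shared regions more than 10 kb away, 20.5% had an odds ratio above 1 with it in all 4 libraries and 7.79% were below 1 in all 4, against 11.7% to 14.4% and 4.41% to 5.78% for the other phloem regions. The spread of its odds ratios was also the widest, with an SD of 0.129 on the log2 scale against 0.074 to 0.095. The NAC020 start region also had the lowest level per kilobase of the 9 regions. By mean CPM, however, NAC086 region 3 was lower (percentile 25.3 of all regions, against 27.6), with an SD of 0.091. The part of the level in the spread was not tested.

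Its 10 highest partners, ranked by the lowest of the 4 libraries, reached 1.35 to 1.52 in that lowest library, while the same measure was 1.13 to 1.26 in the top 10 lists of the other phloem regions. The region at AT1G49200 came first, with 1.57 in control 1, 1.54 in control 2, 1.63 in stress 1 and 1.52 in stress 2. In control 1, 150 nuclei had both open where 113 were expected. The region at AGL97, a MADS-box gene, followed with 1.51, 1.83, 1.47 and 1.56. The next were at AT1G43910, AT1G58007, SIP1, MYB28 (a regulator of glucosinolate synthesis on chromosome 5), a stretch between genes on chromosome 3, AT1G60590, AT1G61660 and AT1G64710.

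At the other end, 10 regions were open with the NAC020 start less often than expected in all 4 libraries, at 0.596 to 0.819. They lay at AT5G24220, APK (a kinase of sulfate assimilation), AT1G06983, AT2G14760, AT5G25260, AT4G04990, AT1G51850, PP2-A8 (a lectin gene of the PHLOEM PROTEIN 2 family), a stretch between genes on chromosome 2, and EXO70H2 (a subunit of the exocyst). At PP2-A8 the values were 0.80, 0.78, 0.76 and 0.71. Without the 5% of nuclei with the highest counts, the lowest library was 1.21 to 1.46 for the 10 highest partners and 0.557 to 0.723 for the 10 lowest.

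**Figure D5:**
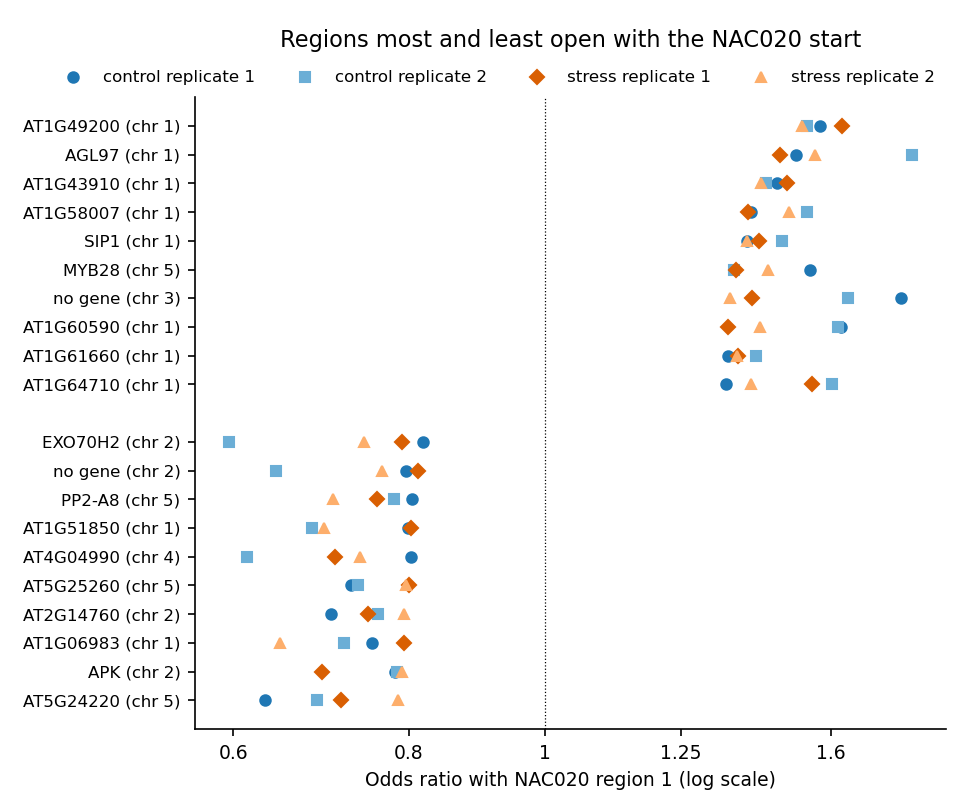
Odds ratio of opening in the same nuclei as the NAC020 start region, 1 point per library on a log axis, for the 10 highest and the 10 lowest of all shared regions. All 4 libraries lie above 1.34 for the first 10 and below 0.82 for the last 10.

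Of the 10 highest partners 8 lay on chromosome 1, as NAC020 does, and of the 10 lowest 2 did. This held for the other phloem regions too: 73 of the 90 highest partners of the 9 regions were on the same chromosome as the region, although only 19.5% to 26.0% of all regions were. The median odds ratio with regions of the same chromosome, 1.02 to 1.11, was above that with other chromosomes, 0.991 to 1.03, in all 36 combinations of region and library. All pairs here are more than 10 kb apart, and the part of chromosome position in the values between phloem genes was not tested. NAC020 and CalS7 lie on chromosome 1, HCA2 and NAC086 on chromosome 5, and NAC057 on chromosome 3.

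With the NAC020 start region, HCA2 region 2 was the only phloem region above 1 in all 4 libraries, at 1.05, 1.32, 1.21 and 1.19, although the genes are on different chromosomes. This pair fell to 0.95 in its lowest library without the top 5% of nuclei. Among further phloem genes, 7 of 30 regions were above 1 in all 4 libraries (23.3%, against 20.5% of all regions). They included SMXL4, a gene that promotes phloem formation (1.43, 1.19, 1.12 and 1.11), and CRN, a pseudokinase of CLE peptide signalling (1.09, 1.23, 1.17 and 1.23). Regions at PEAR2, CLE41 and MAKR5 were also among them. The count was 2 of 13 for the phloem markers of the study, 5 of 13 for endodermis and 1 of 18 for trichoblasts. Regions at cortex (AT1G09750, CYP71B34, AT5G18840), pericycle (MYB305, LBD33) and root cap markers (BRN1, BFN1) were above 1 in all 4 libraries too. So were regions at markers of xylem (AT3G10080, COBL4) and of dividing cells (CDKB2-1, CYCB1-1). A region in the window of the endodermis marker PBL15, on chromosome 1, had 1.57, 1.37, 1.31 and 1.38, so values of this size were not held by phloem genes alone.

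Finally, nuclei with at least 2 of the 5 loci open were compared with the rest within the same 20 depth bins, over 18285 shared regions. These nuclei numbered 2187, 2942, 3060 and 2884 in control 1, control 2, stress 1 and stress 2. In all 4 libraries, 17.8% of the regions were above 1 and 4.99% below, and the median over all regions was 1.02 in each library, so the bins did not bring the typical value to 1. Of the regions of further phloem genes, 6 of 29 were above 1 in all 4 (20.7%), and of the phloem markers of the study 3 of 13 (23.1%), against 4 of 9 for xylem, 5 of 13 for endodermis, 3 of 7 for cortex, 4 of 5 for pericycle, 3 of 18 for trichoblasts, 2 of 13 for root cap and 0 of 6 for division genes. The regions of both phloem lists were spread widely among all regions. The highest was at CRN, at percentile 99.4, with odds ratios of 1.10 to 1.21. The lowest was at AKT2, at percentile 4.81, with 0.841 to 1.06.

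The 10 regions most open in those nuclei had odds ratios of 1.15 to 1.32. They lay at AGL97, AT1G07577, AGF1, a stretch between genes on chromosome 1, AT5G19485, NAC085, U4.6, LCR46, AT4G04630 and MYB20. None of them was at a listed phloem gene, but the 2 phloem lists held only 29 and 13 of the 18285 regions ranked. With so small a share, a place among the 10 was unlikely from the outset. Regions of the phloem genes themselves and those within 10 kb had been left out beforehand. AGL97 was also the second partner of the NAC020 start region, a result that shares nuclei with this one. With at least 3 open loci in place of 2, AT1G07577 kept a place near the top (rank 12) and the other 9 ranked from 106 to 6837.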

How the data were processed

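The authors made the matrices and peak lists from 10x multiome reads; per the labels and the submitters' processing notes they used Cell Ranger ARC 2.0.2, with Signac 1.7.0 and Seurat 4.3.0 listed as tools. The deposited matrices hold raw counts per barcode, for 32833 gene rows without names and for the peaks of each library; 0 columns of other samples were met. Peak lists gave positions only. Peaks were called per library, so overlapping peaks were merged here, and a region was compared only where all 4 libraries had a peak. Peaks met TAIR10 gene starts in 60.1% to 63.8% of cases, against 23.8% to 24.2% after a shift of 10 kb, the check made of the genome build.

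Nuclei were called where a barcode held over 1000 and under 100000 counts of accessibility and over 1000 and under 25000 of RNA. No doublet caller was run; leaving out the 5% of nuclei with the highest counts was an alternative. They held 82.5% to 90.7% of the accessibility counts of a library. Counts were summed per library over a region or over the shared regions of a gene (body and 2000 bases upstream). The main test was edgeR 4.0.16 (R 4.3.3; quasi-likelihood, TMM, filterByExpr, Benjamini-Hochberg over all genes or regions, threshold 0.05, two-sided), with 2 libraries in each group. DESeq2 1.42.0 was an alternative. CPM is the count per 1e6 counts after TMM scaling. On simulated counts a change of 0.3 on the log2 scale was recovered at 52% of genes and 44% of regions, and one of 0.6 at 100% of both. Intervals of log2 changes are from the fit and include the spread between libraries. Wilson intervals of shares cover counting error only. Odds ratios are Mantel-Haenszel values over 20 depth bins; pairs within 10 kb were left out.

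Members, lists and tests were chosen with earlier results of these data known. All 10 members were named with their regions, and of each other list every gene past the threshold or, with none, the 2 largest log2 changes. Of the regions open with phloem loci the 10 highest were named. The single-region comparison and the partners named from it were chosen after their values were seen. RNA rows were used only to call nuclei. The sequence at the NAC020 start is not reported here.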

Additional observations from a re-analysis of the deposited data

How the results depend on the processing

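Counts of phloem genes and regions past the threshold (0 of 5 and 0 of 9 in edgeR) were the same under library totals, RLE factors, no filter, all barcodes, deeper nuclei, leaving out the top 5% of nuclei, fragments, the other gene windows, the width offset and all merged regions. DESeq2 called 2 regions and the replicate block 1 (HCA2 region 1, adjusted p = 0.0481, beside 4.72% of all regions), and leaving out a library gave 0 to 2 genes and 0 to 4 regions. The replicate numbers pair nothing that the labels state, and replicate differences of control and stress correlated at −0.00606 over 18340 regions, so the block is given only here; it called 0 phloem genes. Over all genes the 211 calls became 79 with library totals, 81 without the top 5% of nuclei, 2552 with DESeq2, 1329 with the block, 4593 without control 1 and 9882 without control 2. Over all regions the 210 calls became 59, 106, 2270, 865, 3491 and 7947 in that order, 425 with the width offset, 41 without stress 1 and 36 without stress 2. With all merged regions, absent peaks set to 0, both counts were 0.

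Among log2 changes, signs turned as follows. With all merged regions HCA2 was 0.078 and NAC086 0.16 on the log2 scale, HCA2 was 0.15 in the start window, and CalS7 region 2 was −0.0011 without the top 5% of nuclei. Leaving out a library gave −0.087 to 0.019 for NAC086, −0.11 to 0.013 and −0.084 to 0.019 for its regions 1 and 3, −0.026 to 0.072 for CalS7 region 2 and −0.020 to 0.0098 for NAC020 region 2. Shares of nuclei turned to 0.264 (HCA2), 0.265 (NAC086) and 0.362 (CalS7) percentage points with at least 2 counts, 0.0645 (NAC086) when thinned to 500 counts, and −4.61 (NAC020) with no thinning; NAC020 gave −0.051 to 0.062 without 1 library. The median odds ratio of phloem loci, 1.04, was 1.63 with no depth bins, 1.09 with 5 bins and 1.00 with start regions only, an alternative added after seeing the data; 2114 regions in place of 3253 were above 1 with the phloem loci without the top 5% of nuclei. The lowest odds ratio of HCA2 region 2 with NAC020 region 1 was 0.954 there. Of 215 values of single genes, regions and pairs under the alternatives, these reversals included, 190 kept their sign and side of the threshold, 12 kept their sign and passed it, and 13 reversed. The cause of these shifts was not tested. Depth limits the single regions, at 1478 to 3796 counts per library.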
